A study of Mus musculus with 12 samples.

Results

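The miR-344 family of mouse chromosome 7 was taken as every annotated hairpin (GENCODE release M21) whose symbol is Mir344, alone or followed by a letter or a locus number. This gave 13 of 1174 named hairpins and 9 of 1087 mature miRNA names (miR-344 and miR-344b to miR-344i). Tags, the distinct insert sequences deposited with their read counts, were counted for a hairpin when they matched it exactly over their whole length. All 13 hairpins had at least 1 matching count, and together they took 6404 counts on 95 distinct tags, 0.02133% of the miRNA counts. Of the 15 arms with a count, 7 had at least 10 counts in at least 2 libraries and were tested, and the other 8 shared 77 counts.

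The libraries were made from total hippocampal RNA of individual male C57BL/6NCrl mice, 6 to 8 weeks old by the study's methods, with no transgene. There were 12. Untreated mice (NT) gave 2, and 2 each came from mice killed 0.5, 1, 3, 6 or 24 h after electroconvulsive shock (ECS), a current that fires neurons throughout the brain. One library of each condition belongs to the first time course (suffix -1) and the other to the second (suffix -2), so that a condition has 2 libraries and a time course 6. The untreated mice are labelled as sampled before ECS, and no sham treatment is named.

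The study describes a batch effect between the time courses, which are set side by side here before any effect of ECS is looked for. A library held 1897490 to 7657222 accepted reads, of which 439336 to 4282006 were miRNA counts. These were 10.07 to 32.68% of the accepted reads in the first time course and 50.88 to 69.64% in the second. Levels are given per 1000000 miRNA counts (CPM), and 3 counts, taken as the floor, correspond to between 0.7006 and 6.828 CPM. The miRNA tags of the first time course were shorter. Tags over 22 nt made up 0.0305 to 0.5358% of its miRNA counts, against 1.157 to 8.815% in the second, and the ranges do not overlap. In NT-1, 51.41% of the miRNA counts were on tags under 20 nt, the highest share of the 12. All 6 miRNAs of a neuronal marker list (among them miR-124 and miR-128) had counts, summing to between 59670 and 311300 CPM. No 2 libraries were alike enough to be the same library deposited a second time (66 pairs compared).

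A miRNA is cut from one side of an RNA hairpin, first by Drosha in the nucleus and then by Dicer in the cytoplasm, and the strand kept by Argonaute is called the 5p or the 3p arm after its side of the hairpin. Bases 2 to 8 of that strand, the seed, pair with target mRNAs, so a shift of the first base by a single position changes the set of possible targets. A family of similar hairpins can hold identical mature sequences at several loci and also members with different seeds.

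The mature sequences are shown because the family name covers several seeds. They are the RefSeq sequences (GRCm38.p6), with the seed in capitals. The 3p arms are these.
miR-344-3p: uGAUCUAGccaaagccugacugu
miR-344c-3p: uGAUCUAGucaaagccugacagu
miR-344b-3p: cAUUUAGCcaaagccugacugu
miR-344d-3p: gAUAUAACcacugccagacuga
miR-344e-3p: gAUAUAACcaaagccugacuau
miR-344h-3p: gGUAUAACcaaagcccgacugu
miR-344f-3p: cUCUAGCCaggaccugacuac
miR-410-3p (no family member, shown for its seed): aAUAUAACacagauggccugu

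miR-344 and miR-344c share a seed and differ by 2 edits over the arm. miR-344d and miR-344e share theirs with miR-410, a miRNA of the Dlk1-Dio3 cluster on another chromosome. miR-344b and miR-344h each have a seed of their own. miR-344f shares its seed with the 3p arm of miR-344i, and the same 7 letters stand at bases 4 to 10 of miR-344-3p. No arm outside the family other than miR-410-3p had the seed of a family arm at bases 2 to 8 of its most abundant tag. The seeds of the 3p arms thus fall into 5 sets by their most abundant tags, leaving aside miR-344g.

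The annotated 5p arms also fall into 5 seeds, of which these show each.
miR-344c-5p: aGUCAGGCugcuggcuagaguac
miR-344d-1-5p: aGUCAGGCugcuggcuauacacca
miR-344d-2-5p: aGUCUGGUugcuggcuauauucca
miR-344d-3-5p: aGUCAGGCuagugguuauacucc
miR-344e-5p: cAGGCUUCuggcuauauucc
miR-344f-5p: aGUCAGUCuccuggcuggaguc
miR-344g-5p: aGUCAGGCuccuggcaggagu
miR-344i: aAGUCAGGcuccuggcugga

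miR-344c, miR-344g and 2 of the 3 miR-344d loci have one 5p seed, as do the annotated 5p arms of miR-344 and miR-344b. Those of Mir344d-2, miR-344f and miR-344i have a seed each of their own, and miR-344e and miR-344h share the fifth. The most abundant tag was identical to the RefSeq mature sequence for miR-344-3p, miR-344b-3p, miR-344c-3p, miR-344d-3p, miR-344f-3p, miR-344g-5p, miR-344h-3p and miR-344i-5p.

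The hairpins lie between 61683124 and 62085310 on chromosome 7 (GRCm38), all 13 on the minus strand, in 402.2 kb. The gaps between neighbours run from 2080 to 63822 bp, with a median of 40633 bp. One long noncoding RNA gene, A230057D06Rik (61704519 to 61928690), has 7 of them in its introns, namely Mir344d-3, Mir344e, Mir344h-1, Mir344h-2, Mir344b, Mir344c and Mir344. Mir344-2 is in an intron of A330076H08Rik (61930137 to 61982358), annotated as a processed transcript, and Mir344g overlaps an exon of that gene at its start. Mir344d-1, Mir344d-2, Mir344f and Mir344i are in no annotated gene. Ndn (from 62346569) and Magel2 (from 62377010), paternally expressed genes of the region homologous to the human Prader-Willi locus, lie beyond the last hairpin.

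Many counts cannot be given to one locus. Of the family's counts, 50.62% (3242) were on tags of 1 named locus, 28.08% (1798) on tags of 2 loci and 21.3% (1364) on tags of 3. Mir344 and Mir344-2 shared every one of their 1767 counts. Mir344d-1, Mir344d-2 and Mir344d-3 shared 1363 counts of the 3p arm, and the tags that separate them are nearly all from the 5p arm, with 30 counts for Mir344d-1, 82 for Mir344d-3 and 0 for Mir344d-2. The 2 Mir344h loci shared their 31 counts. Mir344b, Mir344c, Mir344f, Mir344g, Mir344i and Mir344e have a locus of their own each. A single count fell on a tag of 2 mature names, miR-344 and miR-344b.

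**Figure D1:**
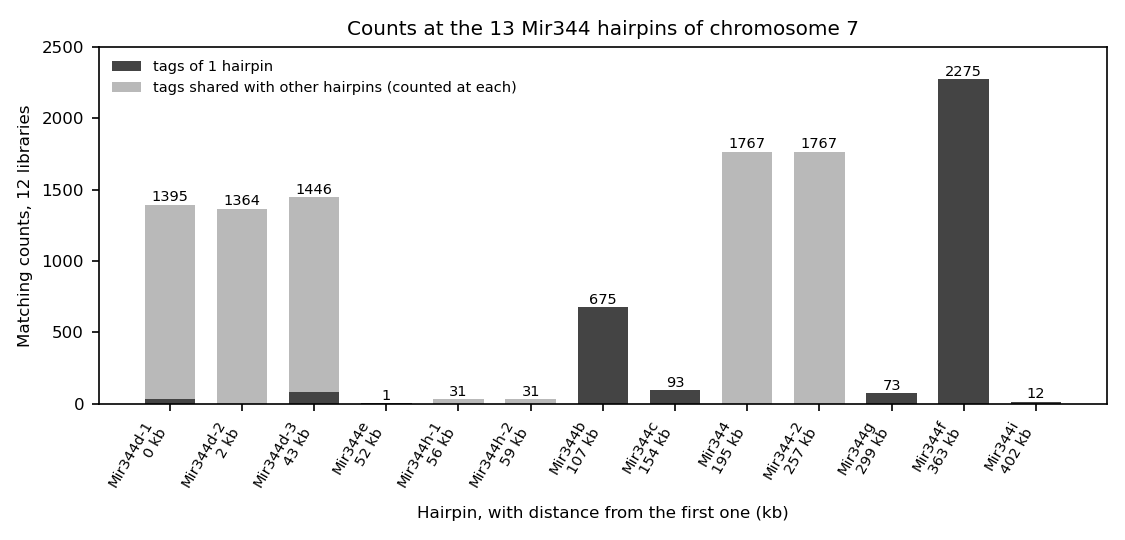
Counts matching each of the 13 hairpins, summed over the 12 libraries, in their order along the chromosome with the distance from the first hairpin in kb. Dark bars are tags of 1 hairpin and light bars are tags shared between hairpins, which are counted at each; Mir344f has the highest bar (2275 counts, no shared tag), while Mir344 and Mir344-2 show the same 1767 shared counts.

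There are also 7 predicted miRNA genes within 1000000 bp of the cluster. Gm23962 and Gm23490 contain the shared tags of miR-344d (1365 and 1364 counts), and Gm24923 holds 7 counts of the family. Gm23873 had 19 counts, Gm22466 had 4 and Gm23917 had 1 on tags that no named hairpin holds, and Gm25533 had 0. So 21.44% of the family's counts could also have come from a hairpin without a miRNA name.

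The 3p arm took 97.02% of the family's counts (6213) and the 5p arm 2.983% (191). The share of the 3p arm was 99.89% for miR-344, 99.96% for miR-344f, 92.42% for miR-344d (95% Wilson interval 90.96 to 93.66) and 86.02% for miR-344c (77.54 to 91.65). miR-344b and miR-344h had 675 and 31 counts on the 3p arm and 0 on the 5p arm. Intervals cover counting error only, since reads were amplified without molecular identifiers.

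miR-344g went the other way. It had 56 counts on the 5p arm and 17 on the 3p arm, so that 23.29% (15.08 to 34.17) were 3p. Its balance was not the same in the time courses, with 8.475% of 59 counts on the 3p arm in the first and 85.71% of 14 counts in the second. Pooled over a time course the 3p arm stood at 0.5992 and 0.5536 CPM (5 and 12 counts), and the 5p arm at 6.472 and 0.09226 CPM (54 and 2 counts). miR-344i, with 7 and 5 counts, had no clear main arm, its interval for the 3p share running from 19.33 to 68.05%.

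Of the 7 tested arms 5 had nearly all their tags at one start. The most used first base took 98.75% of the counts of miR-344-3p, 98.96% of miR-344b-3p, 99.41% of miR-344d-3p, 98.99% of miR-344f-3p and 98.21% of miR-344g-5p. miR-344d-5p and miR-344c-3p varied more. Of the 112 counts of miR-344d-5p, 73.21% (64.34 to 80.55) began at the main start of their locus. At Mir344d-3 this was 62 of 82 counts, with 19 beginning 4 bases later, and at Mir344d-1 it was 20 of 30, with the other 10 beginning 16 bases later. Those 10 were all in NT-1, on 1 tag of 19 nt. miR-344c-3p had 62.5% of its 80 counts at the annotated start (51.55 to 72.31) and 37.5%, or 30 counts, starting 1 base later, and its tags are shown because this start changes the seed. The tags are printed as deposited, with bases 2 to 8 in capitals.
miR-344c-3p, annotated start: tGATCTAGtcaaagcctgacagt
miR-344c-3p, later start: gATCTAGTcaaagcctgacagt

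The later start gives miR-344c-3p a seed that miR-344-3p does not have. Over the same letters miR-344-3p started 1 base later in 1 of 1765 counts (0.05666%). The share of the later start in miR-344c-3p was not steady between libraries. The later tag shown had 10 counts in NT-2, 9 in 1h-2 and 0 in 0.5h-2, where the whole arm had 18, 27 and 18.

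With the time courses pooled, tag lengths had 2 peaks in miR-344-3p, miR-344b-3p and miR-344d-3p. The peak at 20 nt is not particular to the family. Over all miRNA counts the median share of a library was 44.47, 28.83 and 6.123% at 20, 21 and 22 nt in the first time course. In the second it was 34.8, 18.64 and 39.45%. For miR-344-3p, 23-nt tags were 69.29% and 20-nt tags 19.38% of the counts, with 21-nt and 22-nt tags at 3.286 and 1.7%. miR-344b-3p and miR-344d-3p had their peaks at 22 nt (62.96 and 66.18%) and 20 nt (22.81 and 25.99%), with 0.4444 and 4.905% at 21 nt. miR-344f-3p had 67.29% of its first time course counts at 21 nt and 0.481% at 22 nt, nearly all from the 1 library 3h-1. Without 3h-1, 33.93% of 112 counts were at 21 nt and 8.929% at 22 nt, and in the second time course 51.28% and 26.15%. For miR-344-3p the time courses differed at most lengths. The 23-nt tags were 33.96% of its 53 counts in the first and 70.39% in the second, the 22-nt tags 11.32 and 1.402%, the 21-nt tags 28.3 and 2.512%, and the 20-nt tags 18.87 and 19.39%.

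**Figure D2:**
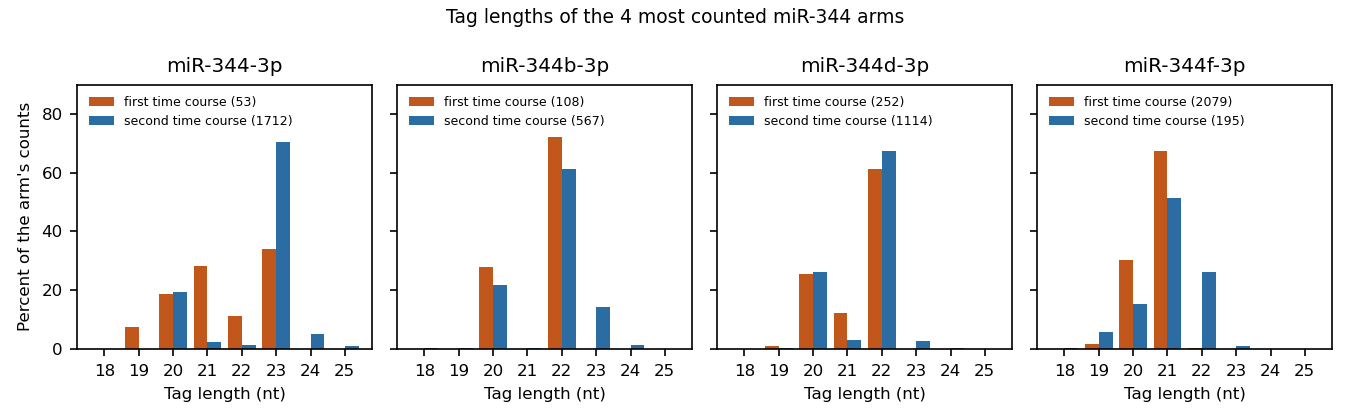
Length of the tags of the 4 most counted arms, as the percent of the arm's counts in each time course, with the number of counts in the key. miR-344b-3p and miR-344d-3p have peaks at 20 and 22 nt in both time courses; miR-344-3p has them at 20 and 23 nt in the second and at 21 and 23 nt in the first, and the first time course of miR-344f-3p is mostly 3h-1. The tags over 23 nt of miR-344-3p, miR-344b-3p and miR-344d-3p are all from the second time course.

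In level the family ran from 15.93 CPM in 6h-1 to 1328 CPM in 3h-1, and from 102.2 to 248.4 CPM in the second time course. The value of 3h-1 is a single arm, since miR-344f-3p made up 98.7% of the family's counts there. Without miR-344f-3p the family stood at 13.66 to 109.4 CPM in the first time course and 97.62 to 239.2 CPM in the second. Fewer cells of a type and less of a miRNA per cell cannot be told apart in tissue RNA.

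miR-344-3p, the member without a letter, was the arm that separated the time courses. Its counts in the first were 7 in NT-1, then 9, 19, 9, 0 and 9 in order of the time after ECS. In the second they were 78 in NT-2, then 623, 400, 347, 60 and 204. In CPM the first time course ran from 0 through a median of 5.562 to 13.95 and the second from 18.22 through 66.66 to 159.9. Every library of the second lies above every library of the first. Over all 469 tested arms such separation with the second higher occurred in 13, or 2.77%, and with the second lower in 55, or 11.7%, and miR-344-3p was the family's single case in either direction. With edgeR's quasi-likelihood test, the time point as covariate and Benjamini-Hochberg adjustment over the 469 arms, its log2 fold change of the second against the first was 4.17 (SE 0.62, adjusted p = 0.00108), the third smallest p of all arms, and it was higher in 6 of 6 pairs of libraries of the same time point. It reached the 10 counts of the filter in 6 libraries of the second time course and in 1 of the first. Since the filter needs 2 libraries, the arm entered the test through the time course where it is high, and its fold change and p are given as a description.

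Since this arm is the longest of the family's common ones, the length of the tags was looked at beside it. Counting just tags of 20 nt, as a share of 1000000 20-nt miRNA counts, miR-344-3p ran from 0 to 7.032 in the first time course and from 14.67 to 92.67 in the second, with a log2 fold change of 4.65 (edgeR, adjusted p = 0.000147). With tags of at most 22 nt it was 3.03 (adjusted p = 0.00304). The ranges do not overlap in either count. Both alternatives were chosen after seeing the lengths. The 20-nt tags of this arm had 10 counts in the whole first time course and 332 in the second. Its tags of at most 22 nt had 35 and 402. Even with tags of all lengths, 1 library of the first reached 10 counts. The arm thus entered both fits through the time course where it is high. Its fold changes and p in both are given as a description. The part of tag length in the difference was not tested.

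miR-344c-3p, with the seed of miR-344-3p, had most of its counts in the second time course. Its counts were 0, 0, 1, 0, 0 and 1 in the first, in order of time, and 18, 18, 27, 8, 0 and 7 in the second, with 6h-2 the library at 0. The pooled level was 15.0 times higher in the second (exact 95% interval 4.02 to 126, counting error only), and the edgeR log2 fold change was 4.15 (SE 1.05, adjusted p = 0.0109). The arm reached 10 counts in 3 libraries of the second time course and 0 of the first, so it entered the test only through the group where it is high, and its fold change and p are given as a description.

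miR-344d-3p and miR-344b-3p were higher in the second time course on average, with overlapping ranges. miR-344d-3p had 1, 111, 19, 7, 0 and 114 counts in the first and 222, 107, 330, 236, 40 and 179 in the second. In CPM this is 0 to 63.26 (median 9.308) against 27.46 to 84.12 (median 47.71). Here 0.5h-1 and 24h-1 reach the level of the second time course while the other 4 of the first stay below it, and the log2 fold change was 2.92 (edgeR, SE 0.99, adjusted p = 0.0377). miR-344b-3p had 0, 42, 7, 0, 6 and 53 counts in the first and 101, 155, 138, 87, 28 and 58 in the second. That gives 0 to 23.94 CPM (median 9.399) against 14.12 to 39.78 (median 22.39), with the same 0.5h-1 and 24h-1 highest, and a log2 fold change of 2.64 (edgeR, SE 0.91, adjusted p = 0.0403). Both calls are near the threshold. They were lost on scaling by the total miRNA count (adjusted p = 0.0553 and 0.0827) and without either library of the untreated, 1 h or 3 h pair, where the adjusted p ran from 0.0756 to 0.128 over both arms, and miR-344d-3p was also lost without 6h-1 or 6h-2 (0.0744 and 0.0564).

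miR-344g-5p had most of its counts in the first time course. It had 29 counts in NT-1, then 15, 6, 3, 0 and 1, and in the second 1, 0, 0, 0, 0 and 1. The level was 27.16 CPM in NT-1, the highest, and at most 0.2434 CPM in the second time course, and the groups overlap because 6h-1 is at 0. Pooled, the first was 70.1 times higher (18.5 to 594, counting error only). The edgeR log2 fold change was -4.89 (SE 1.15, adjusted p = 0.00817). This too is a description, since the arm reached 10 counts in 2 libraries of the first time course and 0 of the second. Without NT-1 or without 0.5h-1 the arm had too few counts to be tested.

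miR-344d-5p and miR-344f-3p did not pass the test. miR-344d-5p, whose tags come from Mir344d-1 and Mir344d-3, had 14, 2, 1, 4, 0 and 7 counts in the first time course and 12, 19, 12, 23, 1 and 17 in the second, 0 to 13.11 CPM against 0.7568 to 5.546, and a log2 fold change of 1.12 (edgeR, SE 0.77, adjusted p = 0.27). miR-344f-3p had 40, 20, 30, 1967, 1 and 21 counts in the first and 38, 36, 33, 42, 6 and 40 in the second. Its log2 fold change was -0.77 (edgeR, SE 0.86, adjusted p = 0.497). With no covariate for the time point it was -4.64 (adjusted p = 0.0112), and in that fit -0.43 without 3h-1 (adjusted p = 0.561) and -4.59 without 3h-2 (adjusted p = 0.017), so this value rests on 3h-1. With the covariate, leaving out either takes the 3 h pair out of the comparison, and the log2 fold change was -0.21 and -0.22.

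Of the 7 tested arms, 5 had an adjusted p under 0.05 between the time courses, 4 higher and 1 lower in the second. Among them miR-344-3p, miR-344c-3p and miR-344g-5p were admitted by the filter through the group where they are high. The tally is therefore not read as a result about the family. The background is high: 152 of 469 arms passed, 32.4%, with 20% higher and 12.4% lower, and 33 of the 152 had no library with 10 counts in the time course where they were lower. The median log2 fold change over all 469 was 0.29. The scaling matters to the balance of these calls. Of the 152 calls 94 were higher in the second, or 61.8%, while scaling by the total miRNA count gave 49 higher and 113 lower (30.2% higher) and a median of -0.3, a shift that applies to every log2 value between the time courses given here. The log2 fold change was then 3.59 for miR-344-3p, 3.65 for miR-344c-3p and -5.35 for miR-344g-5p, the 3 arms of the family that passed. What differed between the mice and what differed in the making of the libraries cannot be told apart.

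**Figure D3:**
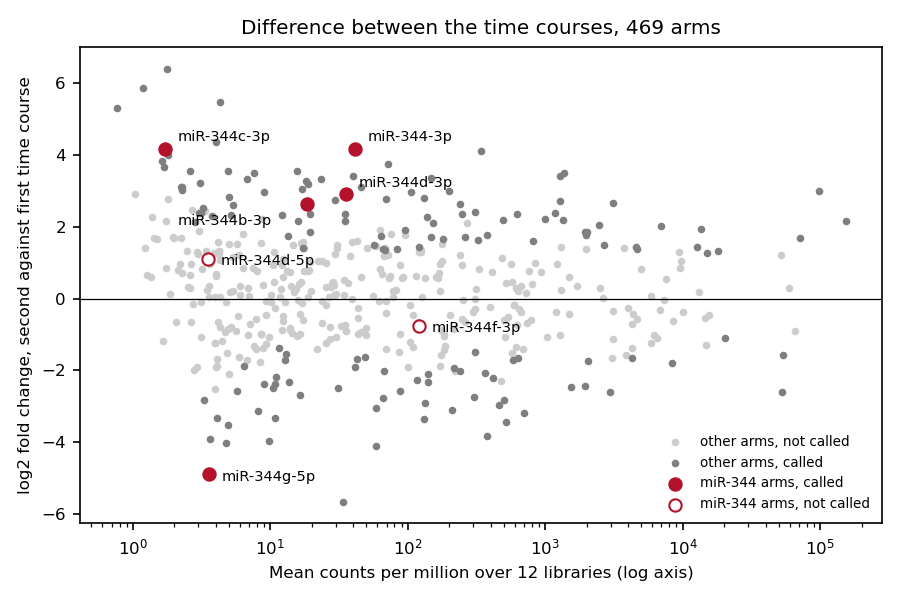
Log2 fold change of the second against the first time course for the 469 tested arms, against the mean CPM over the 12 libraries on a log axis. Called means an adjusted p under 0.05 in edgeR; the 5 called miR-344 arms are filled, with miR-344-3p and miR-344c-3p above 4 and miR-344g-5p near the bottom edge.

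Sums of cell type markers also differed between the time courses. The 4 vessel miRNAs, all detected, summed to between 62910 and 144300 CPM in the first and 5592 to 16420 in the second. Nearly all of this is miR-143-3p (log2 fold change -2.59, edgeR adjusted p = 0.00221). The other 3 did not pass and overlapped, with miR-126-5p at -1.21, miR-126-3p at 1.30 and miR-145-5p at -0.07. The 4 red blood cell miRNAs summed to 328 to 1992 against 162.4 to 253.4 CPM. Here miR-144-3p passed (-3.82, edgeR adjusted p = 0.00191), while miR-144-5p at -1.50, miR-451a-5p at 1.59 and miR-486-5p at 0.58 did not. The 4 oligodendrocyte miRNAs overlapped (2728 to 13950 against 3922 to 18210), as did the white blood cell list (993.8 to 9787 against 157.7 to 2317) and the choroid plexus and Htr2c list (476.4 to 6418 against 124.4 to 3802), in which 6 of 7 had a count and miR-211 was at 0. Single members still passed in edgeR. These were miR-142-5p of the white blood cell list (-2.60, adjusted p = 0.0062), nearly all of its sum, and miR-204-5p of the choroid plexus list (2.17, 0.0143). In that list miR-1298-5p (-2.29), miR-448-3p (-0.37) and miR-1912-3p (0.79) did not pass. In the white blood cell list miR-142-3p, miR-223-3p and miR-155-5p reached at most 0.9341, 1.469 and 0.2434 CPM and were not tested. Of the neuronal list miR-138-5p passed (-1.80, edgeR adjusted p = 0.0109), and the rest, from -0.91 to 1.12, did not. The part of these markers in the differences of the miR-344 arms was not tested.

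After ECS no arm of the family passed in edgeR at any time. In edgeR with 2 libraries against 2, 0.0% of the 469 arms passed at every time. At an unadjusted p under 0.05 there were 9, 2, 10 (2.13%), 9 and 7 arms in order of time, and DESeq2 called 1, 0, 2, 0 and 0. For any difference among the 6 time points edgeR called 0.0%, with 13 arms at an unadjusted p under 0.05 (2.77%), and DESeq2 called 5 (1.07%). Of the 7 family arms, 1 was under 0.05 unadjusted at 3 h and for any difference, miR-344f-3p in both. Each library is a single mouse, and these p-values rest on the spread within the 6 pairs of a time point, each pair holding 1 mouse of each time course.

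miR-344f-3p stood at 37.47 and 8.874 CPM in the untreated libraries and at 1310 and 10.13 CPM at 3 h. At the other times, earliest first, it was at 11.4, 22.03, 2.276 and 9.46 CPM in the first time course and 9.24, 8.412, 4.541 and 9.736 in the second. One library, 3h-1, is thus high and its partner 3h-2 lies near the rest. The log2 fold change at 3 h was 5.49 (edgeR, SE 1.71, unadjusted p = 0.00695, adjusted p = 0.9995). DESeq2 gave 5.58 with an adjusted p of 0.0148, 1 of its 2 calls at 3 h (0.426% of the arms), and with the time course as a block 5.37 (adjusted p = 0.00208). Without 3h-1 the log2 value was -0.6 (edgeR, adjusted p = 0.983). For any difference among the times the edgeR p was 0.00058, the smallest of all 469 arms (adjusted p = 0.272), and without 3h-1 it was 0.636. This arm did pass for any difference with no filter on low counts (edgeR, adjusted p = 5.11e-08), without 3h-2 (edgeR, 0.00953), in DESeq2 (adjusted p = 4.45e-07) and in DESeq2 with the block (0.00112), all of which keep 3h-1.

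The 1967 counts of 3h-1 are 30.72% of all counts of the family, and their level was 34.97 times that of the next library, NT-1. The other arms of the family together had 26 counts in 3h-1. Among the 469 tested arms, miR-344f-3p ranked second by the fold of 3h-1 over the next library, after miR-1934-3p (48.99) and before miR-143-5p (10.68), miR-1969-5p (9.185), miR-708-3p (7.539) and miR-540-5p (7.367). Arms more than 5 times above every other library were 6 in 3h-1, 7 in NT-1, 1 each in 3h-2 and 6h-2 and 0 in the other 8. In 3h-1 the vessel markers summed to 139000 CPM and the choroid plexus and Htr2c markers to 4274 CPM, each the second highest of the 12 libraries. The vessel sum is 99.89% miR-143-3p, while miR-126-3p was at its lowest of the 12 there (40.64 CPM) and miR-145-5p at 3.997 CPM. The choroid plexus and Htr2c sum is mostly miR-1298 (3532 CPM there, at most 707.2 elsewhere). In that list miR-448-3p was at 731.5 CPM in 3h-1, miR-204-5p and miR-1912-3p at 5.329 CPM each, and miR-211, miR-1264 and miR-764 at 0. For miR-204-5p this was rank 11 from the top among the 12 libraries. Whether these marker levels go with miR-344f-3p was not tested.

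miR-344-3p was higher after ECS than in NT-2 in 5 of 5 libraries of the second time course, and higher than in NT-1 in 1 of 5 of the first. Its mean was 12.4 CPM ± 8.25 (SD, n = 2) in the untreated libraries. After ECS it was 82.5 ± 109 at 0.5 h, then 58.0 ± 62.3, 44.8 ± 54.9, 22.7 ± 32.1 and, a day later, 26.9 ± 32.2. The SD is larger than the mean at all 5 times after ECS, and neighbours in this order overlap in 5 of 5 cases. The edgeR log2 fold changes against untreated were 2.78, 2.16, 2.43, 1.52 and 1.58 in order of time, with SEs from 2.07 to 2.15 and adjusted p from 0.988 to 0.9995.

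The other arms had their highest mean at different times, 1 h for miR-344d-3p and miR-344c-3p, 0.5 h for miR-344b-3p and the untreated libraries for miR-344d-5p and miR-344g-5p. In the order of the means, 0 of 5 neighbouring pairs of time points separated for miR-344b-3p, miR-344c-3p, miR-344d-3p and miR-344d-5p, and 1 of 5 for miR-344g-5p and for miR-344f-3p. For both arms this was 24 h above 6 h. For miR-344g-5p it rests on 1 count in each 24 h library against 0 at 6 h, under the floor of 3 counts. For miR-344f-3p the 6 h libraries had 1 and 6 counts. The order comes from the same means, and arms outside the family were not counted this way, so no effect of time is read from these separations. miR-344d-5p was below its untreated library in 5 of 5 libraries of the first time course (13.11 CPM in NT-1) and above it in 4 of 5 of the second (2.802 CPM in NT-2). Of its 14 counts in NT-1, 10 were on 1 tag of 19 nt that starts 16 bases late and has 0 counts in every other library. The level of NT-1 thus rests mostly on this tag. miR-344g-5p fell from 27.16 CPM in NT-1 to 8.548, 4.406, 1.999, 0 and 0.4505 CPM, with a single library at each time, and had 2 counts in the whole second time course.

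**Figure D4:**
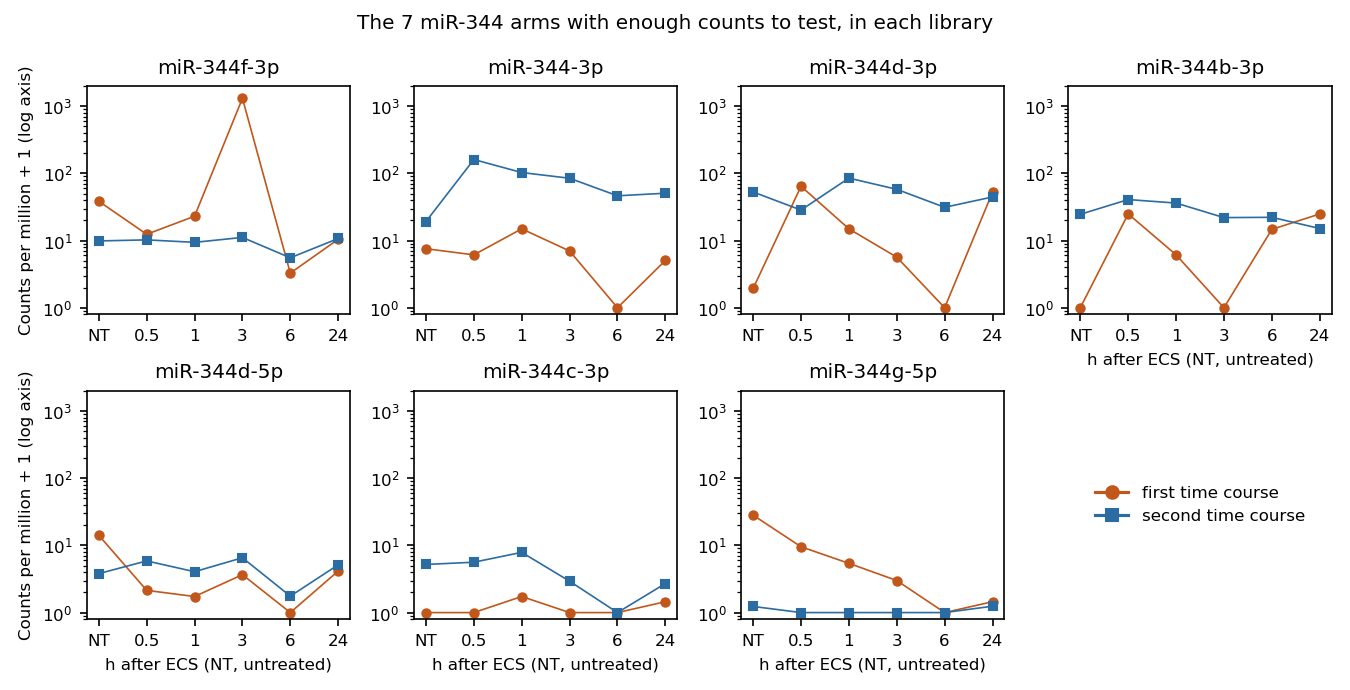
CPM plus 1 on a log axis for the 7 tested arms, in each library, with the untreated library (NT) and the hours after ECS on the horizontal axis. Circles are the first time course and squares the second; miR-344-3p runs apart in the 2 courses throughout, and the miR-344f-3p circle at 3 h (1310 CPM) stands far above the other libraries.

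The members did not keep a fixed ratio to each other. For each count of miR-344d, miR-344 had 0.07895 to 7 counts in the first time course (5 libraries, 6h-1 having 0 of both), and 0.3514 to 5.822 in the second. The ratio of 7 is 7 counts against 1 in NT-1, the 1 being under the floor of 3 counts. The next highest of the first time course was 1.286 in 3h-1 (9 against 7 counts). In NT-2 miR-344d was the more abundant (78 against 222 counts), and in 0.5h-2 miR-344 was (623 against 107).

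The shared seed of miR-344d and miR-410 allowed the family's part of one seed to be measured. Over the 12 libraries, tags with that seed at bases 2 to 8 came to 16324 counts of miR-410, 1358 of miR-344d and 1 of miR-344e. In the first time course miR-344d gave 0.8696% of the pool in NT-1 and then 8.321, 1.579, 0.4212, 0 and 6.941%, the 0 being 0 of 261 counts in 6h-1. In the second it gave 8.031% in NT-2 and 3.451, 23.08, 22.01, 2.878 and 9.765% after ECS. The highest shares were in 1h-2 and 3h-2, where miR-410 itself was at its lowest of the second time course (278.6 and 201.6 CPM).

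The mean share over 6 libraries was 3.022% (SD 3.634) in the first and 11.54% (SD 8.932) in the second time course. In 5 of 6 pairs it was the larger one, with 0.5 h the exception. The difference of 8.515 percentage points had p = 0.125 in a two-sided exact test over the 64 sign changes of the 6 pairs, whose smallest possible p is 0.03125. Within a library the share does not depend on the scaling, and the difference was 9.03 points when tags were matched by their first 18 nt (exact p = 0.125).

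**Figure D5:**
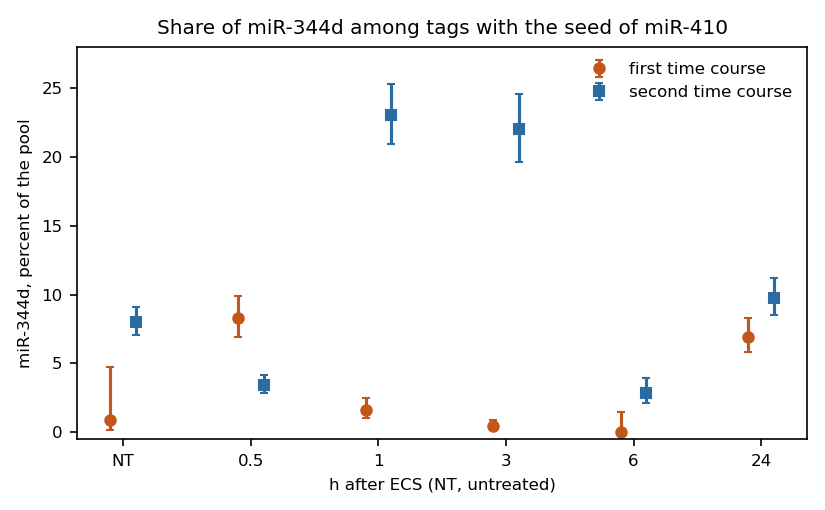
Percent of miR-344d among the tags that carry the seed of miR-410, in each library, with 95% Wilson intervals as bars. The squares of the second time course at 1 and 3 h lie at 23.08 and 22.01%, and the other 10 libraries lie under 10%.

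The 5 arms outside the family most like its summed 3p counts, by the root mean square difference of log2 CPM centred within each time course over 12 libraries, were miR-708-3p (0.7739), miR-1969-5p (0.8123), miR-664-5p (0.8951), miR-488-3p (0.9726) and miR-493-5p (1.03), against a median of 1.786 over 462 arms. The measure leans on 3h-1. The CPM of miR-708-3p there was 2428 against at most 322 in the other libraries of the first time course, and that of miR-1969-5p 1434 against 156.2. It was 900 against 214.4 for miR-664-5p, 2946 against 737.4 for miR-488-3p and 375.7 against 80.78 for miR-493-5p.

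Among the arms with few counts, miR-344h-3p had 31 counts, 23 of them in the first time course (4 in NT-1, 11 in 0.5h-1 and 8 in 24h-1). miR-344g-3p had 17 counts in 8 libraries, and its most abundant tag did not start at the annotated base. miR-344c-5p had 13 counts and miR-344i had 7 on the 5p and 5 on the 3p arm. miR-344-5p had 2 counts, and miR-344e-3p and miR-344f-5p had 1 each, under the floor of 3 counts.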

How the data were processed

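Per the labels, hippocampal total RNA was size selected by PAGE at about 18 to 24 nt, and it was ligated with the Illumina small RNA kit and sequenced. The authors deposited raw counts of accepted reads for each distinct tag of at least 18 nt, without normalization, and mapped to another build. Replicate numbers mark the time course. Pairs of libraries of a time course deviated together (mean r = 0.506 over 15 pairs of time points, 0.296 to 0.788).

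Tags were matched exactly to GENCODE M21 hairpins (GRCm38), split equally between mature names and rounded to whole counts (the count shared by miR-344 and miR-344b is thus 1 in each), and assigned to an arm by their midpoint. The 469 arms that reached 10 counts in 2 or more libraries were fitted with edgeR 4.0.16 (R 4.3.3; TMM, quasi-likelihood, Benjamini-Hochberg adjustment, threshold 0.05), with the time point as covariate between time courses, and without a block between times. DESeq2 1.42.0 was an alternative. The fits were tested on simulated data. Named arms are every miR-344 arm with a count, arms sharing a seed, the 5 arms most alike, and miRNA genes within 1000000 bp. The members, lists and tests were chosen with earlier results of these data known.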

Additional observations from a re-analysis of the deposited data

Results flagged for a closer look

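In each time course of 6 libraries, the highest or lowest library of each tested arm was compared with its nearest neighbour, as was the share of the miR-410 seed. Of 16 such groups 4 held a library apart from the rest. The threshold gives about 1 in 20 for normally distributed values. CPM values are bounded at 0, some come from few counts, and the groups share libraries, so no excess over chance is read from this. miR-344f-3p was at 1310 CPM in 3h-1, with 37.47 CPM next (gap over range 0.973). It was at 4.541 CPM in 6h-2, below 8.412 CPM (0.693), from 6 counts. miR-344d-5p was at 13.11 CPM in NT-1, above 3.153 CPM (0.759), and miR-344g-5p at 27.16 CPM in NT-1, above 8.548 CPM (0.685). Of the 14 counts of miR-344d-5p there, 10 were on 1 tag of 19 nt with 0 counts in every other library. NT-1 also had the highest share of miRNA counts on tags under 20 nt (51.41%).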

How the results depend on the processing

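miR-344-3p kept its direction and its call between the time courses under each of 10 alternatives (log2 3.03 to 4.65) and without each library in turn (3.79 to 4.55). The log2 value of miR-344c-3p ran from 3.29 to 4.22 under 9 alternatives and from 3.79 to 4.91 without a library. That of miR-344g-5p ran from -5.35 to -4.7 under 9, and from -6.23 to -4.33 without 1 of 10 libraries. Both arms kept their calls as well. All 3 are a description, since the filter admitted these arms by the time course where they are high, and most alternatives keep that filter. With the time point left out of the fit, 193 arms passed, and miR-344d-3p and miR-344b-3p lost their calls (log2 1.53 and 1.65, edgeR adjusted p = 0.138 and 0.0978). The count of 152 calls ran from 119 (tags of 20 nt) to 222 (DESeq2), and from 92 to 157 without a library, with 92 and 101 without 1h-1 and 1h-2.

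Against untreated, the edgeR count of 0 became 1 at 3 h and 9 for any difference with no filter on low counts. DESeq2 called 1 at 0.5 h, 2 at 3 h and 5 for any difference, and with the time course as replicate block 2 at 0.5 h, 5 at 3 h, 3 at 6 h and 10 for any difference. That DESeq2 fit with the block and the fits restricted by tag length were chosen after seeing the data. So were the fits between time courses without each 3 h library and with the time point left out (173 and 166 calls). The edgeR fit with the replicate block called 0 at each time. Without a library edgeR called 0 at each time and 0 to 2 for any difference, 2 without 3h-2. Without a library the log2 value of miR-344f-3p at 3 h ran from -0.6 (without 3h-1) to 6.36. That of miR-344-3p, in order of time, ran from -1.44 to 4.26, -0.28 to 3.64, -1.0 to 3.91, -7.95 to 3.0 and -1.74 to 3.06. Each lowest value came without the second library of that time, and for 6 h the library left has 0 counts, so that its value depends on the prior count. The share of the miR-410 seed differed by 5.899 to 11.19 points without each time point. With tags of 1 locus the 3p share of miR-344d was 1.754% of 114 counts, because its 3p tags are shared between loci. Relative to accepted reads the mean log2 ratio of the time courses rose by 1.26 for every arm (2.39-fold), which is under the SD between pairs of each. Leaving out a library leaves its time point with 1, assumed to vary like the others. Depth limits arms under the floor of 3 counts.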
